A study of Mus musculus with 8 samples.

Results

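The plasminogen activators Plau and Plat, the activator receptor Plaur and the serpins Serpine2, Serpinb2 and Serpinf2 were examined in the wound skin of mice. With them were the coagulation starter F3, the protease inhibitor gene Tfpi2 and the anticoagulant gene Thbd. These 9 genes were chosen by name, as parts of fibrinolysis and of the tissue factor pathway. No measured value entered the rule, although earlier results of these data were known when the genes were chosen. All 9 were among the 18540 genes of the count table, and 8 of them passed the filter on low counts that left 15147 genes for testing. RNA was sequenced from 8 skin samples, with 4 in each of 2 groups. The control group was wounds given PBS, and the treated group, Z1C2Z, was wounds given for 15 days a ZnO2/CeO2@ZIF-8 composite with the higher of its CeO2 to ZnO2 ratios. The sample titles give only a group name and a number, and their meaning was taken from the study. The sources used here do not give the strain, age or sex of the sequenced mice. The study worked on both C57BL and diabetic db/db mice and made a pair of wounds on each, so whether any of the samples shared an animal is not known. The p-values below measure the spread between these samples.

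Fibrinolysis is the removal of fibrin clots by plasmin, a protease made by cutting plasminogen. Plau encodes urokinase and Plat encodes tissue plasminogen activator, the enzymes that make this cut. Plaur encodes the membrane-anchored receptor that holds urokinase at the cell surface, and the serpins act as inhibitors, Serpine2 and Serpinb2 of the activators and Serpinf2 of plasmin itself. F3 encodes tissue factor, the receptor that starts clotting after injury, while Tfpi2 encodes a Kunitz-type protease inhibitor and Thbd encodes thrombomodulin, which turns thrombin towards activation of protein C. In skin, urokinase and its receptor are known from migrating keratinocytes and infiltrating leukocytes, and plasmin clears the fibrin matrix through which a wound closes.

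The libraries held 28856790 to 38974888 counts each. The tissue label was borne out by its markers, since 6 keratinocyte genes together held 11675 to 18228 CPM (counts scaled to library size, TMM-adjusted) in every sample and 7 fibroblast genes held 47627 to 90217 CPM. Some samples stood apart in their makeup. The sum of 8 hair shaft keratins was 25.8 to 231 CPM in the control group and 248 to 2959 CPM in the Z1C2Z group, being 2959 CPM in Z1C2Z-2 and 2910 CPM in Z1C2Z-4, and all 8 of these keratins were higher after treatment. Control-1 held the largest sum of 8 skeletal muscle genes, 6420.5 CPM against 3439 to 4576 CPM in the other control samples and 2889 to 3293 CPM in the treated ones. Control-1 also held 338 CPM of 8 endothelial genes, against 611 to 904 CPM in the other 3 control samples. A list of 4 mesothelial or smooth muscle markers was lower after treatment, with a sum of 634 to 783 CPM in the control samples and 388 to 450.2 CPM in the treated ones. Of these, Acta2, Cnn1 and Des passed the test. Des, which skeletal muscle also expresses, held 199 to 334 CPM of the control sums, and the part of skeletal muscle in its values was not tested. The sum of 8 macrophage genes was 2469 to 2815 CPM in the control samples and 1477 to 2559 CPM in the treated ones, with 7 of the 8 below 0 and none passing the test. The part of these differences in the results below was not tested beyond the fits described with the limits.

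Of the 8 genes tested, 5 were lower in the Z1C2Z group by edgeR's quasi-likelihood test at an adjusted p under 0.05, namely Plat, Plaur, Serpine2, Serpinb2 and Tfpi2. Over all genes tested 3.85% were lower by the same rule, and 8.13% changed in either direction. None of the 8 was higher, at the adjusted threshold or at an unadjusted p under 0.05, by edgeR or by DESeq2. Plaur and Serpinb2 were also beyond a log2 fold change of -1, a rule that 1.25% of all genes met in the lower direction. The 5 genes Plat, Plaur, Serpinb2, Tfpi2 and Thbd had treated samples that lay entirely below the control samples, where 17.3% of all genes had groups that did not overlap in one direction or the other. The log2 fold changes of all 8 genes lay below 0, with a median of -0.94 and a range from -2.92 to -0.22, and the median of all genes tested was 0.01. In bulk tissue, fewer cells of a type and less RNA per cell cannot be told apart.

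**Figure D1:**
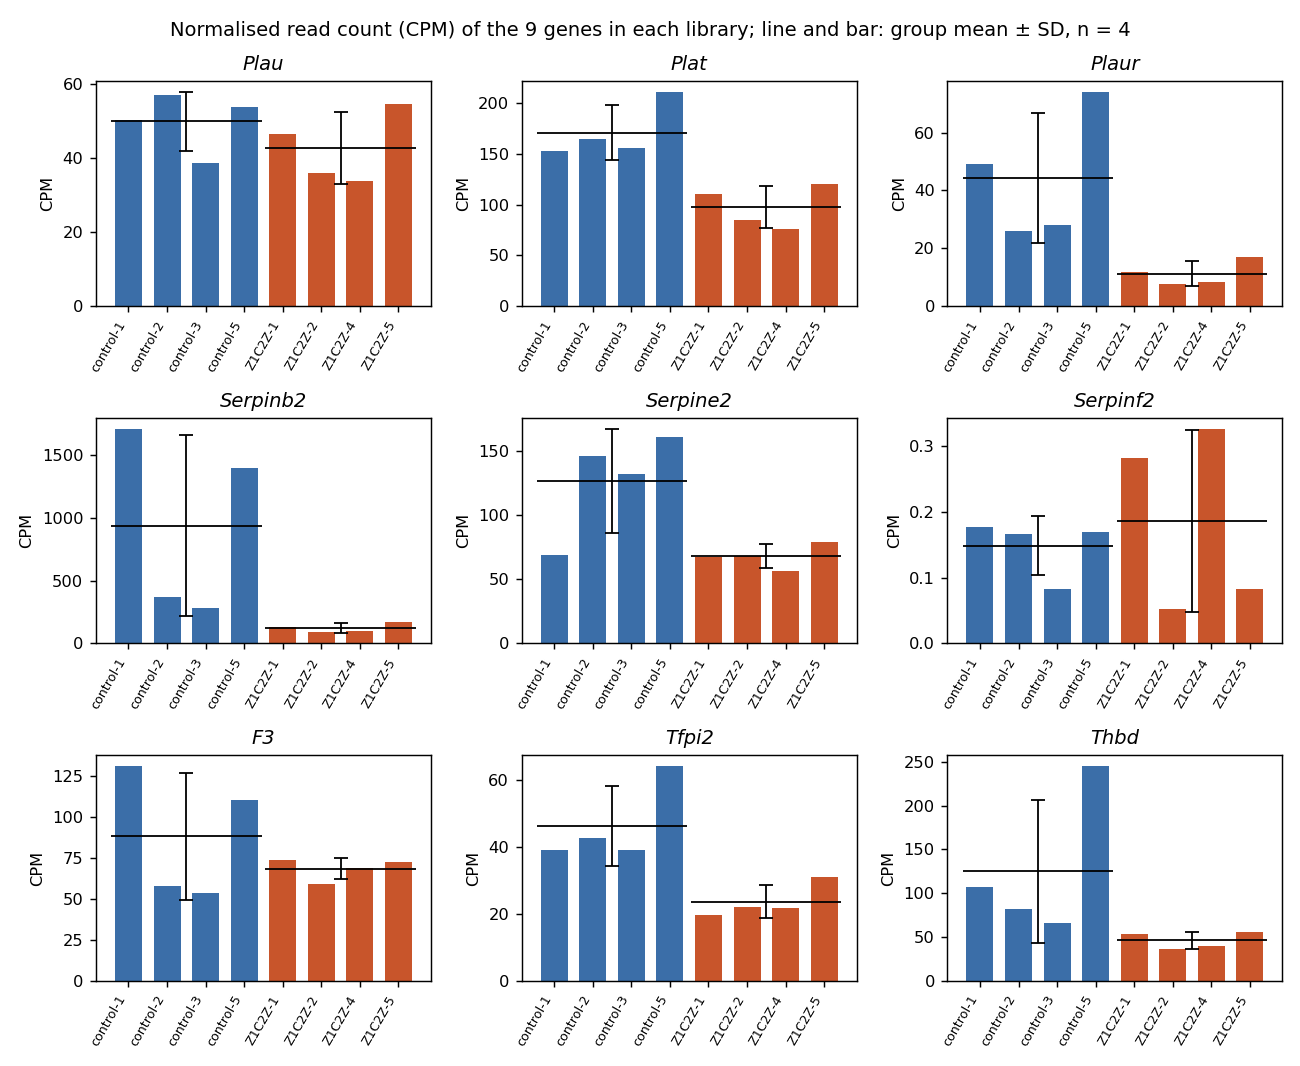
CPM of each of the 9 genes (vertical axes from 0, 1 panel per gene) in the 4 control samples (blue bars) and the 4 Z1C2Z samples (orange bars), with a line at the group mean and an error bar of 1 SD. Serpinb2 spans 279 to 1704 CPM in the control samples and 92.3 to 172 CPM in the treated ones, while the groups of Plau, Serpine2, Serpinf2 and F3 overlap.

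Promoters of 4 of the genes are shown because a match to the AP-1 motif TGANTCA lies upstream of their annotated start. The 250 bases before the start are given 5′ to 3′ on the strand of the gene from the RefSeq annotation of GRCm38.p6, with the AP-1 match in capitals. They lie at chr7:24462233-24462482 on the plus strand for Plaur, at chr1:107511173-107511422 on the plus strand for the first annotated start of Serpinb2, at chr6:3968376-3968625 on the minus strand for the third annotated start of Tfpi2, and at chr3:121723287-121723536 on the plus strand for F3.
Plaur: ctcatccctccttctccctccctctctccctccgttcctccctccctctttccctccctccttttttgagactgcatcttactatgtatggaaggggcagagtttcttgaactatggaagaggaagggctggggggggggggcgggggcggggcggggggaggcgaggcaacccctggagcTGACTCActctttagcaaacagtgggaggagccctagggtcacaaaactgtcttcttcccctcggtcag
Serpinb2: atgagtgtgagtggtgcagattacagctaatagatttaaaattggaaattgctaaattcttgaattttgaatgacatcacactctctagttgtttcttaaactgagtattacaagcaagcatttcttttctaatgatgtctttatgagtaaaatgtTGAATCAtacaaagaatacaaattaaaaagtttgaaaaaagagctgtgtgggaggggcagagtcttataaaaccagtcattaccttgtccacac
Tfpi2: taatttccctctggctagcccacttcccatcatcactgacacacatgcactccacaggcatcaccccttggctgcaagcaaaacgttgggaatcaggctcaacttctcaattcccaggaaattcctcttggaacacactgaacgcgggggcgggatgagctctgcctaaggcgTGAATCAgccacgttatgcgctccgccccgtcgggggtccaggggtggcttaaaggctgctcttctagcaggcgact
F3: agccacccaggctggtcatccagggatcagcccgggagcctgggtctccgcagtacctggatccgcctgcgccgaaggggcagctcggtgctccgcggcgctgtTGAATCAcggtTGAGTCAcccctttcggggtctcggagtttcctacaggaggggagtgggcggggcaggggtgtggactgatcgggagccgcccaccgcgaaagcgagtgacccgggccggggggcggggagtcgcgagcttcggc
Windows of 300 bases, from 250 before to 50 after a start, were searched on both strands, and 6 of the 9 genes had a window. Plau, Plat and Thbd had none. The AP-1 match began at position -69 in Plaur, at -94 in Serpinb2, at -77 in Tfpi2, and at -146 and -135 in F3. The share of all 32851 promoter windows with such a match was 7.81%. Serpinb2 also held a match to the STAT motif TTCNNNGAA, which 8.30% of all windows held, at position 11 after its first start. The same Tfpi2 window held the hypoxia response core ACGTG on the reverse strand at -68, and 19.6% of all windows held that core. The NF-kappa B motif, searched as GGGRNWYYCC and present in 4.51% of all windows, was found in no window of these genes. Sites that depart from these letters were not searched for. The windows of Serpine2, Serpinf2 and the first and second starts of Tfpi2 held no match to the motifs searched. Of the 4 genes with a printed promoter, Plaur, Serpinb2 and Tfpi2 were lower after treatment, and F3 did not pass the test. A match is a description of letters and not evidence that a factor binds.

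The activators came first. Plau, urokinase, had 50.4, 56.9, 38.6 and 53.7 CPM in the control samples 1, 2, 3 and 5, and 46.6, 36.0, 33.8 and 54.5 CPM in the Z1C2Z samples 1, 2, 4 and 5, the order used throughout. The groups overlapped, and the highest treated sample lay above 3 of the 4 control samples. The means were 49.9 ± 8.00 CPM (SD, n = 4) and 42.7 ± 9.62 CPM (SD, n = 4). The log2 fold change was -0.22 with an SE of 0.18 and an edgeR adjusted p of 0.435, and its 95% interval ran from -0.62 to 0.17. That interval takes in both a decrease and a small increase.

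Plat, tissue plasminogen activator, had 152, 165, 155 and 211 CPM in the control samples and 110, 84.8, 76.2 and 120 CPM in the treated ones. Every treated sample was below every control sample, with control-5 the highest. Plat was 1.75-fold lower after treatment, with a log2 fold change of -0.81 with an SE of 0.17 and an edgeR adjusted p of 0.0319. The exact two-sided permutation test over the 8 samples gave p = 0.0286, which is the smallest value that 70 arrangements of 4 against 4 can give.

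Plaur, the urokinase receptor, had 49.1, 26.1, 28.2 and 74.1 CPM in the control samples and 11.96, 7.85, 8.46 and 17.0 CPM in the treated ones. The groups did not overlap, and control-1 and control-5 were well above the other control samples. Z1C2Z-1 and Z1C2Z-5 were likewise the highest treated samples. The means were 44.4 ± 22.4 CPM (SD, n = 4) and 11.3 ± 4.18 CPM (SD, n = 4), a 3.92-fold difference. The log2 fold change was -1.97 with an SE of 0.38 and an edgeR adjusted p of 0.0303, and it stood at place 71 of 15147 genes ordered from the lowest log2 fold change. Without both control-1 and control-5 Plaur was 2.41-fold lower and did not pass the test, with an edgeR adjusted p of 0.0906. The log2 fold change of Plaur there was -1.27 with an SE of 0.30, in a fit that called 13 of all genes tested. The sum of 8 neutrophil markers was also lower after treatment, at 849 to 1697 CPM in the control samples and 264 to 792 CPM in the treated ones. S100a8, S100a9 and Stfa1, with control means of 378, 628 and 254 CPM, made up most of that sum. Stfa1 was the only 1 of the 7 tested that passed the test, and the groups of the others overlapped. Within the control group that sum was lowest in control-1, where Plaur was the second highest, and the part of neutrophils in the Plaur result was not tested.

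The inhibitors of the activators included the most abundant of the 9 genes. Serpinb2, plasminogen activator inhibitor type 2, had 1704, 366, 279 and 1391 CPM in the control samples and 129, 92.3, 99.0 and 172 CPM in the treated ones. The groups did not overlap, and control-1 and control-5 again exceeded control-2 and control-3 by a wide margin. Among the treated samples Z1C2Z-1 and Z1C2Z-5 were again the highest. The means were 935 ± 719 CPM (SD, n = 4) and 123 ± 36.5 CPM (SD, n = 4). Serpinb2 was 7.58-fold lower, a log2 fold change of -2.92 with an SE of 0.58 and an edgeR adjusted p of 0.0303, at place 26 from the lowest of all genes. The size of this difference rested on a pair of control samples, since without both control-1 and control-5 it was 2.63-fold with an edgeR adjusted p of 0.0711. The log2 fold change there was -1.39 with an SE of 0.25, in a fit that called 13 of all genes tested. Serpinb10 is annotated in GENCODE as overlapping Serpinb2 on the same strand, and it held 291 to 1049 counts per sample against 3564 to 49378 counts of Serpinb2. How reads shared by both genes were assigned is not given in the sources used here. Wound keratinocyte keratins, the sum of Krt6a, Krt6b, Krt16 and Krt17, lay between 2822 and 6388 CPM in the control samples and between 2319 and 4209 CPM in the treated ones, with none of the 4 passing the test, and their part in the Serpinb2 result was not tested.

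Serpine2, protease nexin-1, had 68.7, 146, 132 and 160 CPM in the control samples and 66.9, 68.2, 56.6 and 79.3 CPM in the treated ones. Control-1 lay inside the range of the treated samples, and the other 3 control samples lay above it. Serpine2 was 1.87-fold lower, a log2 fold change of -0.90 with an SE of 0.24 and an edgeR adjusted p of 0.0491, just under the threshold. The exact permutation test gave p = 0.0571. Without control-1 the log2 fold change was -1.11 with an SE of 0.13 and an edgeR adjusted p of 0.0266. The call was lost in the fit with shared replicate numbers as a block, where only the samples numbered 1, 2 and 5 inform the group difference. That fit gave -0.72 and an edgeR adjusted p of 0.178. Control-1 was also the control sample with the lowest sums of fibroblast and endothelial genes, 61263 CPM and 338 CPM. The fibroblast sum was 61263 to 90217 CPM in the control samples and 47627 to 66251 CPM in the treated ones, with all 7 genes below 0 and Dcn and Lum passing the test, and the part of these cells in the Serpine2 result was not tested.

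Serpinf2, alpha 2-antiplasmin, is known as a plasma protein made in the liver. It had 5, 6, 3 and 6 counts in the control samples and 10, 2, 13 and 3 counts in the treated ones. These counts did not pass the filter, and at this depth no difference was detectable.

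**Figure D2:**
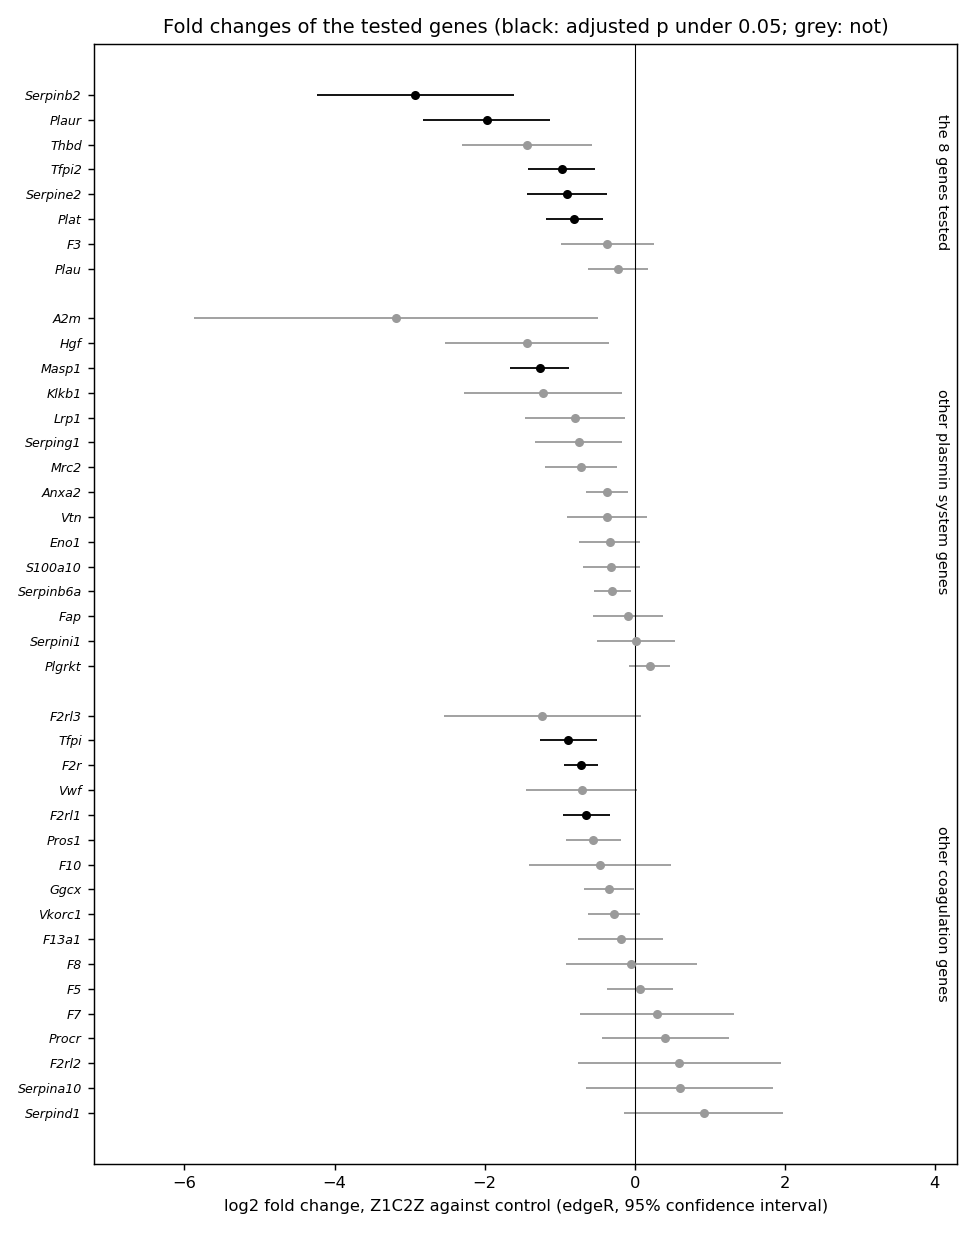
Log2 fold change, Z1C2Z against control, of the 8 genes tested (top), the other plasmin system genes (middle) and the other coagulation genes (bottom), with 95% intervals from edgeR, in black where the adjusted p was under 0.05 and in grey where it was not. The 8 estimates at the top lie below 0, from -2.92 for Serpinb2 to -0.22 for Plau, and the intervals of Plau and F3 include 0.

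The genes of the tissue factor pathway behaved unevenly. F3, tissue factor, had 131, 57.6, 53.5 and 111 CPM in the control samples and 73.5, 59.2, 68.6 and 72.8 CPM in the treated ones. The treated samples lay inside the control range, between the high values of control-1 and control-5 and the low values of control-2 and control-3. The log2 fold change was -0.37 with an SE of 0.28 and an edgeR adjusted p of 0.417, and its 95% interval ran from -0.99 to 0.26. Without both control-1 and control-5 it was 0.30, the opposite direction, with an edgeR adjusted p of 0.186.

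Tfpi2 had 38.9, 42.7, 38.9 and 64.1 CPM in the control samples and 19.7, 22.0, 21.6 and 30.8 CPM in the treated ones. Every treated sample was below every control sample, and the samples within each group were close together apart from control-5 and Z1C2Z-5. Tfpi2 was 1.96-fold lower, a log2 fold change of -0.97 with an SE of 0.20 and an edgeR adjusted p of 0.0306.

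Thbd, thrombomodulin, had 107, 82.1, 65.4 and 245 CPM in the control samples and 53.2, 36.3, 39.5 and 55.5 CPM in the treated ones. The groups did not overlap, but control-5 was far above the other control samples. The log2 fold change was -1.44 with an SE of 0.39, a 2.71-fold difference, and the edgeR adjusted p of 0.0526 missed the threshold. DESeq2 gave an adjusted p of 0.00110 for the same gene, and without control-5 Thbd was 1.83-fold lower with an edgeR adjusted p of 0.0858. The log2 fold change there was -0.87 with a smaller SE of 0.20, in a fit that called 0 of all genes tested. Thbd is known from endothelium, and the sum of 8 endothelial genes was 338 to 904 CPM in the control samples and 286 to 542 CPM in the treated ones, with none of the 8 passing the test. Control-5, the highest for Thbd, was also the highest for that sum. Control-1, at 107 CPM of Thbd, lay above control-2 and control-3 but had the lowest sum of the control samples, 338 CPM. The part of endothelial cells in the Thbd values was not tested.

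Levels of different genes were compared per kilobase of exon, with exon lengths from GENCODE M21 on GRCm38. Serpinb2 was highest in both groups, at a mean of 398 CPM per kb (119 to 725) in the control samples and 52.5 CPM per kb (39.3 to 73.4) in the treated ones. Its lowest control sample lay above the highest control sample of any other of the genes. F3 followed in the control group at 34.9 CPM per kb (21.2 to 51.9), and Thbd, Plat, Tfpi2, Plau, Plaur and Serpine2 came next with means from 33.6 down to 15.3 CPM per kb. Neighbours in this order from F3 to Serpine2 had control ranges that overlapped, which does not show how they stood within a single library. In the Z1C2Z group the order after Serpinb2 was F3 at 27.1, Plau at 18.1, Plat at 15.7, Tfpi2 at 13.5, Thbd at 12.4, Serpine2 at 8.18 and Plaur at 4.32 CPM per kb. Plau thus stood at place 6 of the 9 genes in the control group and at place 3 in the treated group. Its treated range of 14.3 to 23.0 CPM per kb overlapped those of Plat (12.2 to 19.2) and Tfpi2 (11.3 to 17.6). Within each library, Plau per kb lay below both Plat and Tfpi2 in every control sample and above both in every treated one. Serpinf2 was lowest in both groups, at 0.0641 and 0.0800 CPM per kb.

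**Figure D3:**
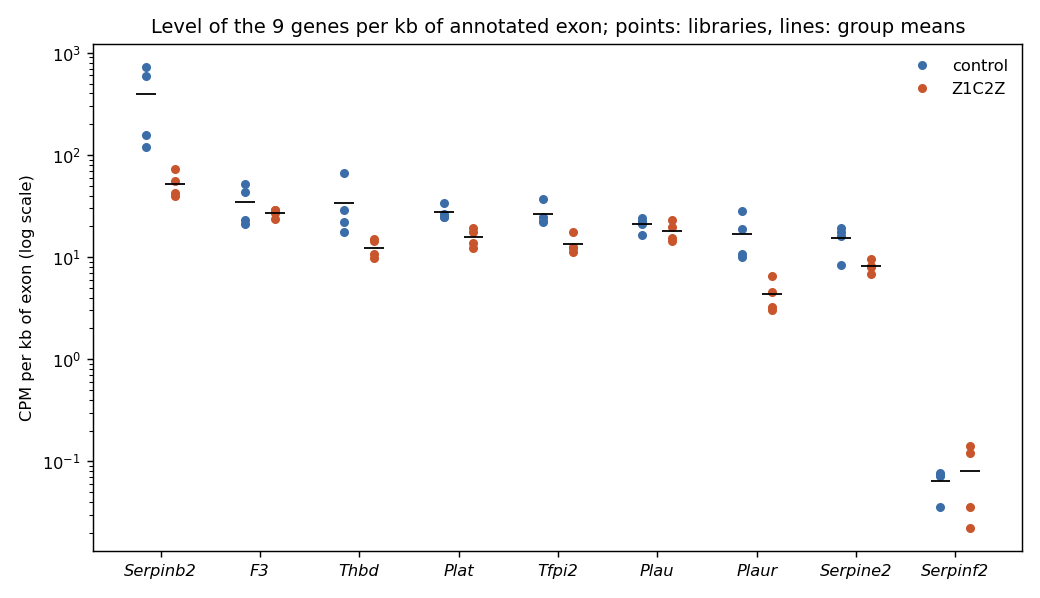
CPM per kb of annotated exon (log axis) of each gene, with blue points for the 4 control samples, orange points for the 4 Z1C2Z samples and lines at the group means. Serpinb2 lies highest in both groups, and Plaur has the lowest Z1C2Z mean of the genes that were tested, 4.32 CPM per kb.

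The balance between members of the system was read as a ratio of counts within each library, which needs no scaling between libraries. In all, 6 ratios were formed, and they were chosen after the counts had been seen, so they are given as a description with no test and restate the differences of the single genes. There were 1.03, 2.18, 1.37 and 0.725 Plau counts per Plaur count in the control samples and 3.90, 4.58, 4.00 and 3.21 in the treated ones. Every treated sample held more urokinase transcript per receptor transcript than every control sample, and the mean log2 ratio was higher by 1.67. The Plat count per Plaur count was 2.85 to 6.31 in the control samples and 7.08 to 10.8 in the treated ones, a log2 difference of 1.09. Urokinase relative to its inhibitor moved the same way, with 0.0296 to 0.155 Plau counts per Serpinb2 count in the control samples and 0.316 to 0.390 in the treated ones, a log2 difference of 2.32. Between the activators themselves the ratio was lower after treatment, from 2.89 to 4.03 Plat counts per Plau count in the control samples to 2.20 to 2.36 in the treated ones, a log2 difference of -0.58. Tissue factor relative to thrombomodulin was higher after treatment, at 0.452 to 1.22 F3 counts per Thbd count in the control samples and 1.31 to 1.74 in the treated ones, a log2 difference of 1.00. F3 counts per Tfpi2 count overlapped between the groups, at 1.35 to 3.38 and 2.36 to 3.73.

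**Figure D4:**
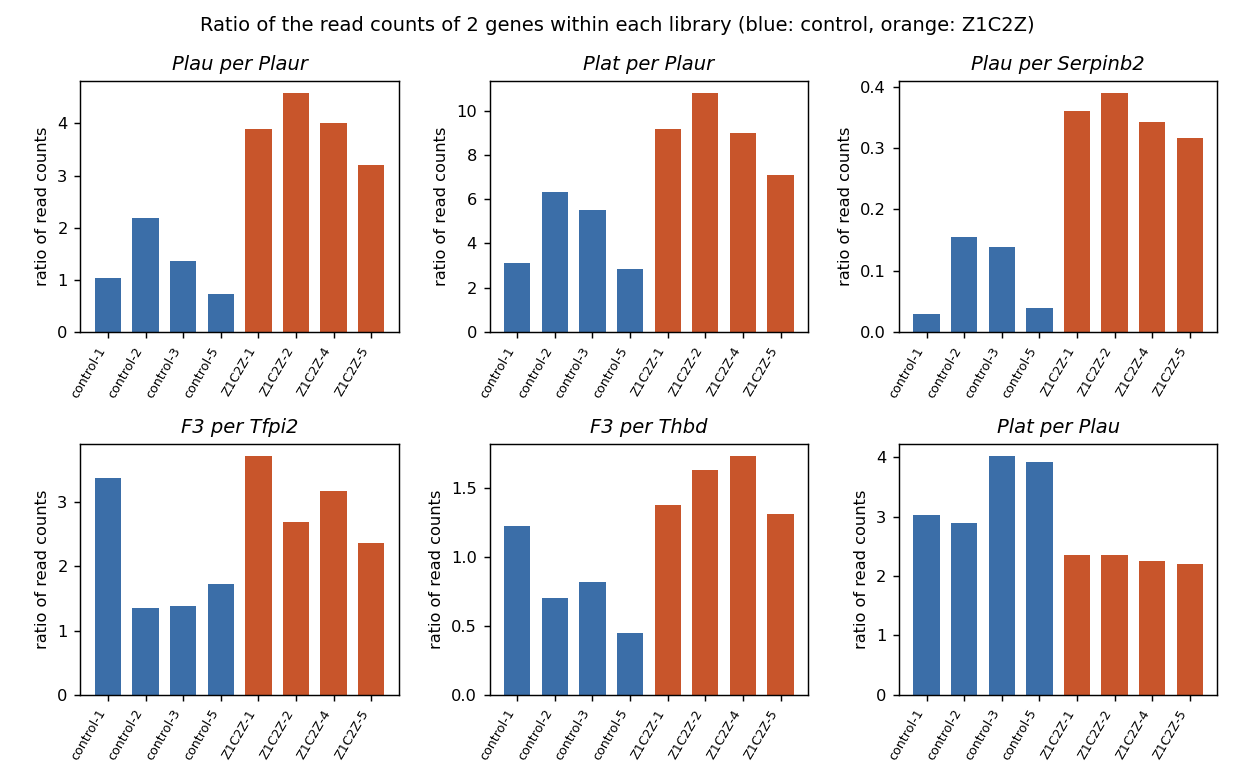
Ratio of the read counts of a pair of genes within each library (vertical axes from 0, 1 panel per ratio), with blue bars for the control samples and orange bars for the Z1C2Z samples. The treated samples lie above the control samples for Plau per Plaur, Plat per Plaur, Plau per Serpinb2 and F3 per Thbd, below them for Plat per Plau, and overlap them for F3 per Tfpi2.

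For the 3 genes with the smallest unadjusted p, the 5 other genes with the most similar log2 CPM over the 8 samples were found by Pearson's r, as a description. Genes chosen this way share the group difference of the gene they were matched to. The nearest to Plaur were Socs3 (r = 0.997), Thbs1, Tmem47, Nus1 and Il17ra (r = 0.991). The r of the deviations from the group means was 0.974 to 0.989. The nearest to Serpinb2 were Uap1 (r = 0.991), Acsl4, Snapc1, Il6 and Ak1 (r = 0.984), with 0.951 to 0.987 for the deviations. The nearest to Tfpi2 were Pdlim1 (r = 0.986), Capns1, Stk38l, St6galnac4 and Flot1 (r = 0.980), with 0.922 to 0.962 for the deviations. Among the 28 pairs of the 8 tested genes themselves, r ran from -0.0710 between Serpine2 and F3 to 0.960 between Plaur and Serpinb2. The points share libraries and depth, and each group adds only 4 of them.

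The rest of both pathways was described from hand-written lists. Of 15 other plasmin system genes tested, 1 was lower and 0 were higher, with a median log2 fold change of -0.37, a range from -3.18 to 0.20 and 13 values below 0. Over all 15147 genes 3.85% were lower, 8.13% changed either way and 7414 values lay below 0, so that a single call in this list is close to the share over all genes. At an unadjusted p under 0.05, 9 of the 15 were lower, where 4248 of all genes passed in either direction. The gene that passed was Masp1, a serine protease of the lectin pathway of complement, at 84.3 ± 13.6 CPM (SD, n = 4) in the control samples and 35.0 ± 7.64 CPM (SD, n = 4) in the treated ones, without overlap (log2 fold change -1.27, SE 0.18, edgeR adjusted p 0.0280). DESeq2 called 6 genes of this list, so the count depended on the test, and over all genes DESeq2 called 2756 where edgeR called 1231. Of 17 other coagulation genes tested, 3 were lower and 0 were higher, with a median of -0.28, a range from -1.23 to 0.92 and 11 values below 0, against the same 3.85% of all genes that were lower. At an unadjusted p under 0.05, 5 of these 17 were lower. Tfpi, the main inhibitor of the tissue factor complex, was 77.7 ± 16.5 CPM (SD, n = 4) in the control samples and 42.1 ± 6.89 CPM (SD, n = 4) in the treated ones (log2 fold change -0.89, SE 0.17, edgeR adjusted p 0.0303). The thrombin receptor F2r was 97.7 ± 9.70 CPM (SD, n = 4) and 59.4 ± 4.62 CPM (SD, n = 4), with a log2 fold change of -0.72 and an edgeR adjusted p of 0.0280. The related receptor F2rl1, which trypsin-like proteases cut, was 79.0 ± 13.2 CPM (SD, n = 4) and 50.6 ± 6.12 CPM (SD, n = 4), with a log2 fold change of -0.64 and an edgeR adjusted p of 0.0336. The groups of Tfpi, F2r and F2rl1 did not overlap. Platelet markers had a sum of 123 to 205 CPM in the control samples and 63.5 to 109 CPM in the treated ones. Pf4 and Itgb3, with control means of 75.5 and 66.1 CPM, made up most of that sum. Of the 5 tested, 4 lay below 0 and Gp1bb was at a log2 fold change of 0.47, and none passed the test. The part of platelets in the coagulation results was not tested.

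The number of the 8 genes called depended on which samples and terms entered the fit. It was 5 with edgeR without further terms and 6 with DESeq2, which called 1231 and 2756 of all genes. Leaving out control-5 alone gave 0 calls, as did leaving out Z1C2Z-1, Z1C2Z-2 and Z1C2Z-4 in turn, and leaving out control-2 gave 2. The fits that gave 0 here also called 0 of all genes tested, and the fit without control-2 called 123. The log2 fold changes of Plat, Plaur, Serpine2, Serpinb2 and Tfpi2 stayed below 0 in all of these fits. In each of the fits without 1 sample, 6 of the 8 genes had an unadjusted p under 0.05. With the mean log2 CPM of the hair shaft keratins as a covariate the count was 0, as it was over all genes. In that fit 1 gene of the 8 had an unadjusted p under 0.05. With the mean of the skeletal muscle genes as a covariate the count was also 0, against 7 over all genes. In that fit 5 genes of the 8 had an unadjusted p under 0.05. The summed CPM of both lists separated the groups, at up to 231 CPM in the control samples against 248 CPM or more in the treated ones for hair shaft keratins, and at 3439 CPM or more against up to 3293 CPM for muscle genes.

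**Figure D5:**
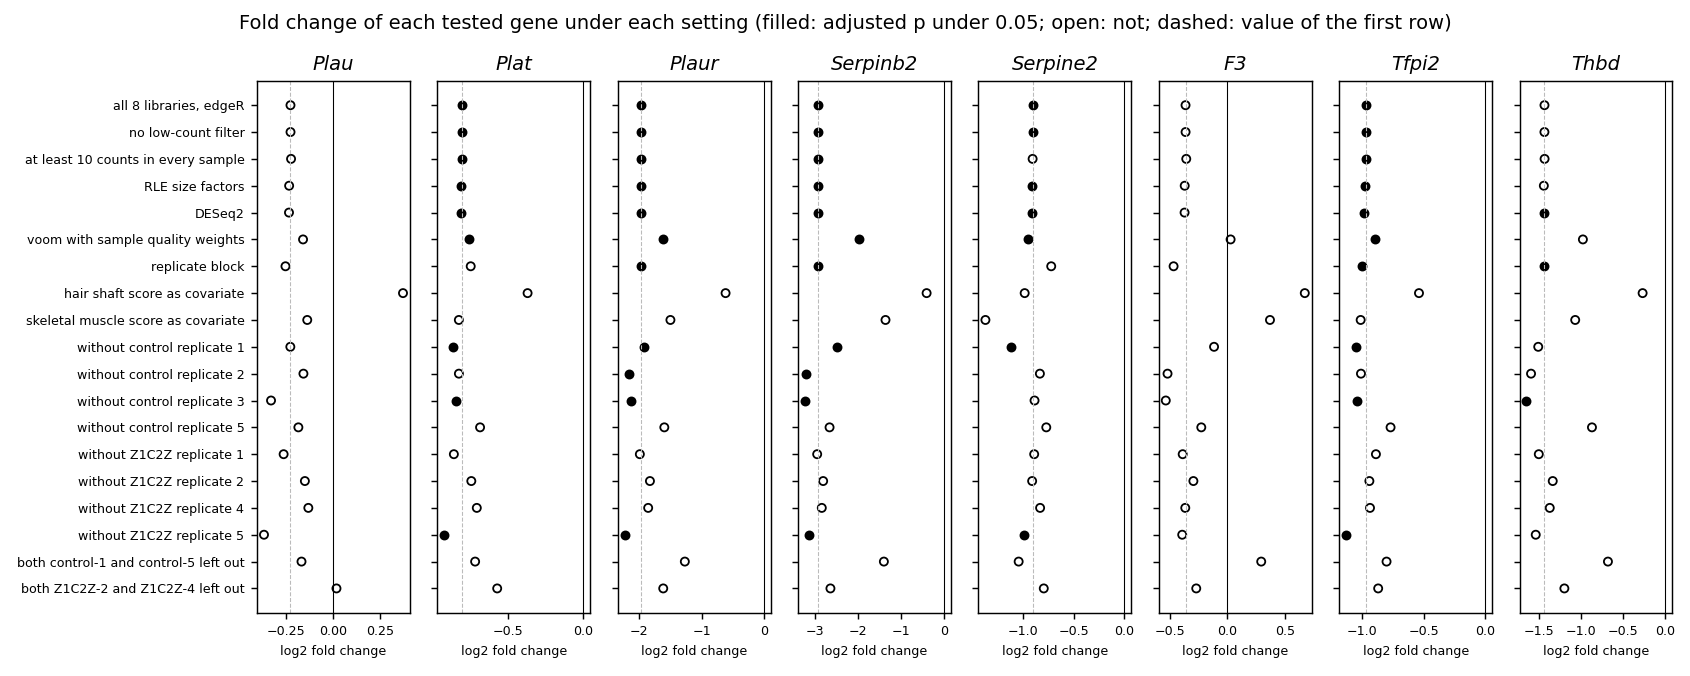
Log2 fold change of each gene tested (1 panel per gene, horizontal axes of different range) in the fit of all samples and in 18 alternatives, filled where the adjusted p was under 0.05 and open where it was not, with a dashed line at the value from all samples. The points of Plat, Plaur, Serpinb2, Serpine2, Tfpi2 and Thbd all lie below 0, and those of Plau and F3 lie on both sides of it.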

How the data were processed

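The authors deposited raw read counts for 18540 genes in 8 samples, with no normalization. Per the labels, total RNA was extracted with Trizol (an RNA Easy Fast Tissue/Cell kit according to the study's methods), rRNA was removed and random-primed dUTP libraries were made. The aligner, counting program, genome build, annotation and strand setting are not given in the sources used here. Totals of 28856790 to 38974888 counts per sample leave genes with few counts imprecise. No per-sample column was left unused (0). Counts were filtered with filterByExpr, TMM-normalized and tested with edgeR 4.0.16 (quasi-likelihood, Benjamini-Hochberg over 15147 genes, threshold 0.05) in R 4.3.3, with limma 3.58.1 and DESeq2 1.42.0 as alternatives, after a test on simulated data. Intervals are at the 95% level. Each gene's mean log2 CPM was also compared by exact two-sided permutation (prior count 2, and 0.5 as an alternative). Other alternatives were no filter, a minimum of 10 counts, other size factors, covariates, a replicate block and samples left out. The text names the 9 genes, listed genes past the threshold, and the 5 genes most like each of 3. The genes and lists were chosen with earlier results of these data known. Ratios and the correlation of deviations were added after the data were seen. In addition, 1 gene of the plasmin system list is not reported here.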

Additional observations from a re-analysis of the deposited data

Results flagged for a closer look

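In each of the 9 genes, the CPM of the 4 control samples and of the 4 treated samples were examined for a sample far from the rest, 18 groups in all, by Dixon's ratio of the gap to the range against its 95% critical value for 4 samples. Chance alone marks about 1 in 20 such groups. Tfpi2 in the control group had a ratio of 0.847, with control-5 at 64.1 CPM against 38.9 to 42.7 CPM in the other control samples. Without control-5 the log2 fold change of Tfpi2 was -0.77 with an SE of 0.16 and an edgeR adjusted p of 0.0778, in a fit that called 0 of all genes tested. Serpinf2 in the control group had a ratio of 0.883, with 3 counts in control-3 against 5 or 6 counts in the others, and counts this low carry a large counting error.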

How the results depend on the processing

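Plat, Plaur, Serpine2, Serpinb2, Tfpi2 and Thbd kept a log2 fold change below 0 in all 18 alternative fits, and Plaur and Serpinb2 passed the threshold in 10 of them, Tfpi2 in 9, Plat in 8, Serpine2 in 6 and Thbd in 3. The 5 calls among the 8 genes were 0 with the hair shaft mean as a covariate, 0 with the skeletal muscle mean, 0 without both control-1 and control-5, 0 without both Z1C2Z-2 and Z1C2Z-4, 2 with a fold change over 2 as well, and 0 to 5 when single samples were left out. At an unadjusted p under 0.05 the first 4 of these fits gave 1, 5, 6 and 5 lower genes, and without both control-1 and control-5, where 9 genes were tested, F3 was higher. The single call among the other plasmin system genes became 6 with DESeq2, 3 with voom and sample weights, 0 with either covariate, 0 without either pair of samples, and 0 to 2 when single samples were left out. The 3 calls among the other coagulation genes became 0 with either covariate, 0 without either pair, 0 with a fold change over 2 as well, and 0 to 4 when single samples were left out. Over all genes the number called was 1231, against 2756 with DESeq2, 554 with the replicate block, 7 with the muscle covariate, 0 with the hair shaft covariate, 13 without control-1 and control-5, and 0 to 1745 when single samples were left out. No gene had an adjusted p below 0.0232, while 4248 genes had an unadjusted p under 0.05.

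The direction turned for genes that had not passed the test. With the hair shaft covariate the log2 fold change was 0.37 for Plau, 0.68 for F3 and 2.73 for A2m. Without Z1C2Z-2 and Z1C2Z-4 it was 0.0184 for Plau. F3 was at 0.0280 with voom, 0.37 with the muscle covariate and 0.30 without control-1 and control-5, where A2m was at 0.46. The cause was not tested. Serpinf2 passed into only 3 of the fits, with adjusted p-values of 0.785 without the filter in edgeR, 0.840 in DESeq2 and 0.701 without control-1 and control-5.

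Replicate numbers 1, 2 and 5 occur in both groups. Samples with the same number deviated together with r = -0.101, -0.0623 and 0.323. These values were not compared with those of differently numbered samples, so they do not settle whether the numbers pair the samples. The samples were treated as unpaired. Those numbered 1 and 5 held the highest Plaur, Serpinb2, F3 and Thbd values in both groups. For Plau, Plat, Serpine2 and Tfpi2 they did not. Control-3 and Z1C2Z-4 have numbers found only in their own group, so in a replicate block they add nothing to the group difference. Such a block gave 4 calls among the 8 genes, 2 among the other plasmin system genes and 2 among the other coagulation genes. It lost Plat (-0.75, edgeR adjusted p 0.0611) and Serpine2 (-0.72, 0.178) and gained Thbd (-1.44, 0.0260). The SE of Plaur was 0.16 with the block and 0.38 without it, and that of Serpinb2 was 0.34 and 0.58. That of Plau was 0.18 in both.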

Other observations

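Several plasma proteins of clotting and fibrinolysis had few transcripts in wound skin. Plg, which encodes plasminogen and is known from the liver, had 9, 3, 13 and 0 counts in the control samples and 10, 3, 8 and 3 counts in the treated ones, and it did not pass the filter. Of the other coagulation genes, F2, F9, F12, F13b, Fga, Fgb, Fgg, Proc, Serpinc1 and Proz did not pass it either. A2m, which encodes a broad protease inhibitor, was named after its values were seen. It had 420, 41, 13 and 747 counts in the control samples and 61, 13, 8 and 68 counts in the treated ones, with the high values of each group in the samples numbered 1 and 5. Its log2 fold change of -3.18 did not pass the test (edgeR adjusted p 0.122). Of 17 alternative fits it passed in 1, the replicate block, with a log2 fold change of -2.94, an SE of 0.37 and an edgeR adjusted p of 0.00881.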
